A study of Mus musculus with 12 samples.

Results

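The genes described here are 10 genes of the brain endothelium and of the blood-brain barrier, among 54752 genes counted in mouse cerebellar cortex. Cldn5, Ocln, Pecam1, Mfsd2a, Abcb1a, Slco1a4 and Slco1c1 were chosen for their known role in these vessels. Itm2a, Jcad and Ahnak were chosen because their levels in these libraries changed with diet, so their values are given as a description and without a test. All mice were male wild-type F1 hybrids of C57BL6J and FVB, aged 12 weeks. They were fed ad libitum (AL), on dietary restriction (DR) or on a ketogenic diet (KD), with 4 libraries per diet. The AL and DR mice were killed at the start of the dark period, the DR mice without their last meal, and these libraries were picked by RNA quality from a larger number of mice. How the KD mice were fed and killed was not given in the sources used here. The tissue was a part of the cortex with several folia and without the nuclei, so vessels were one component among neurons and glia.

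Endothelial cells of brain capillaries are joined by tight junctions, which close the path between cells, and they make few vesicles, which limits the path through them. What enters or leaves the brain therefore depends largely on membrane transporters, some of which carry nutrients inwards while ATP-driven pumps return drugs and other foreign molecules to the blood. Wnt ligands from neural cells keep this program active, and pericytes, basement membrane and astrocyte endfeet surround the vessel wall.

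The libraries held 31712084 to 40798644 counted reads (median 36674269). The 10 genes all passed the filter on low counts, and their counts per library lay between 359 (Mfsd2a) and 3475 (Ahnak). Levels are given as CPM, counts relative to the size of the library, which TMM factors correct for differences in composition. Endothelial markers were present in every library, with Flt1 at 59.6 to 76.9 CPM, Cdh5 at 8.43 to 13.1 CPM and Tek at 9.39 to 13.5 CPM. Among other cells, markers of Purkinje cells (6 genes) summed to 6267 to 7813 CPM and those of granule cells (6 genes) to 3536 to 3904 CPM, so the defining markers of the labelled tissue were present. Choroid plexus is an epithelium that also expresses Slco1c1. Its 8 markers summed to 23.8 to 25.1 CPM on AL, 20.6 to 27.2 CPM on DR and 20.2 to 28.4 CPM on KD, most of it from Otx2 (10.5 to 15.4 CPM) and Clic6 (7.25 to 9.68 CPM). Ttr was at 0.361 to 7.95 CPM, with the highest value in KD replicate 1, and Folr1 and Kcne2 were at or below 0.104 and 0.173 CPM. The part of choroid plexus RNA in the level of Slco1c1 was not tested.

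The stretches of 250 bases before the transcription start are printed for 4 of the genes, because Cldn5 is the main claudin of these vessels, Itm2a was furthest apart between diets, and Slco1a4 and Slco1c1 are carriers of one family encoded near each other on chromosome 6. They come from RefSeq (GRCm38.p6) and read 5′ to 3′ on the strand of the gene. The RefSeq starts lay 0 (Cldn5), 16 (Itm2a), 21 (Slco1a4) and 14 bases (Slco1c1) from the gene starts of the deposited table. Capitals mark matches, on either strand, to the GATA box (AGATAA), the CCAAT box (these letters) or the GC box (GGGCGG), motifs that were chosen after the promoters had been viewed.
Cldn5, chr16:18776597-18776846, plus strand: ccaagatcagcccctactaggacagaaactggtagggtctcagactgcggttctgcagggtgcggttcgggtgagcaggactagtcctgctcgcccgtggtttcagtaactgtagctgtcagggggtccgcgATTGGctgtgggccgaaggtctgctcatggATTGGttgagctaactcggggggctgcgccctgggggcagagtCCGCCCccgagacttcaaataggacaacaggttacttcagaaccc
Itm2a, chrX:107403361-107403610, minus strand: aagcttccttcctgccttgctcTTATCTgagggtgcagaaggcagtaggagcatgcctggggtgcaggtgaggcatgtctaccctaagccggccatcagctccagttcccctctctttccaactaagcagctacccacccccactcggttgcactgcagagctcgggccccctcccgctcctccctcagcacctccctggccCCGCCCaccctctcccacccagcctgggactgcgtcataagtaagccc
Slco1a4, chr6:141856221-141856470, minus strand: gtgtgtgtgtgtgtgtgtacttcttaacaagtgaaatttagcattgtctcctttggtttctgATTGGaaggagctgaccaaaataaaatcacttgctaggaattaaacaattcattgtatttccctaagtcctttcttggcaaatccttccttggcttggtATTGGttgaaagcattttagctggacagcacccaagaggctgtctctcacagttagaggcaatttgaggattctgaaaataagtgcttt
Slco1c1, chr6:141524104-141524353, plus strand: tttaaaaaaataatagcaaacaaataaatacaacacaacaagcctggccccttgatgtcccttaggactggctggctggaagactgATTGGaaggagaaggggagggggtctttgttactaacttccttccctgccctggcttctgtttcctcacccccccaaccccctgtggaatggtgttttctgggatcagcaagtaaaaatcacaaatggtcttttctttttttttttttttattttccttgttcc

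The Itm2a stretch held 1 GATA box, read as TTATCT, and such a box was in 9.99% of 32851 promoters of the same length. It also held 1 GC box, which 32.7% of promoters held. Cldn5 had 2 CCAAT boxes, read as ATTGG, and 1 GC box, Slco1a4 had 2 CCAAT boxes and Slco1c1 had 1. A CCAAT box was in 33.8% of promoters. The Slco1a4 and Slco1c1 stretches shared a run of 14 letters, CTGATTGGAAGGAG, which began 191 and 167 bases before their start sites. It was found in 2 of the 32851 promoters, which are these 2 themselves. As the run was taken from this pair and other pairs were not searched, the count does not show how unusual such a run is. Cldn5 and Itm2a were rich in G and C (59.6% and 62.8%), whereas Slco1a4 and Slco1c1 (39.2% and 42.8%) lay below the median of 52.4% over all promoters. These matches describe letters only, since no measurement here reads factor binding.

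Per length of exon, as CPM divided by exon length in kilobases (RPKM), Itm2a had the highest mean level of the 10 genes over the pooled diets, 12.6 ± 2.74 (SD over 12 libraries). Cldn5 followed at 10.9 ± 1.82 RPKM and Jcad at 8.08 ± 0.987 RPKM. The order of Itm2a and Cldn5 was not the same in all libraries. Itm2a was higher in 4 of 4 AL and 3 of 4 KD libraries, and Cldn5 in 3 of 4 DR libraries. Cldn5 exceeded Jcad in 10 of 12. Slco1c1 (5.80 ± 0.345 RPKM), Abcb1a (5.64 ± 0.446), Slco1a4 (5.07 ± 0.250), Mfsd2a (5.05 ± 0.467) and Ocln (4.86 ± 0.247) lay close together. Within this group each gene exceeded the next in only 5 to 10 of 12 libraries, and Slco1a4 and Mfsd2a were the least separable (5 of 12). Ocln was above Ahnak (4.003 ± 0.520 RPKM) in 12 of 12 libraries, and Ahnak above Pecam1 (2.56 ± 0.333 RPKM) likewise.

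**Figure D1:**
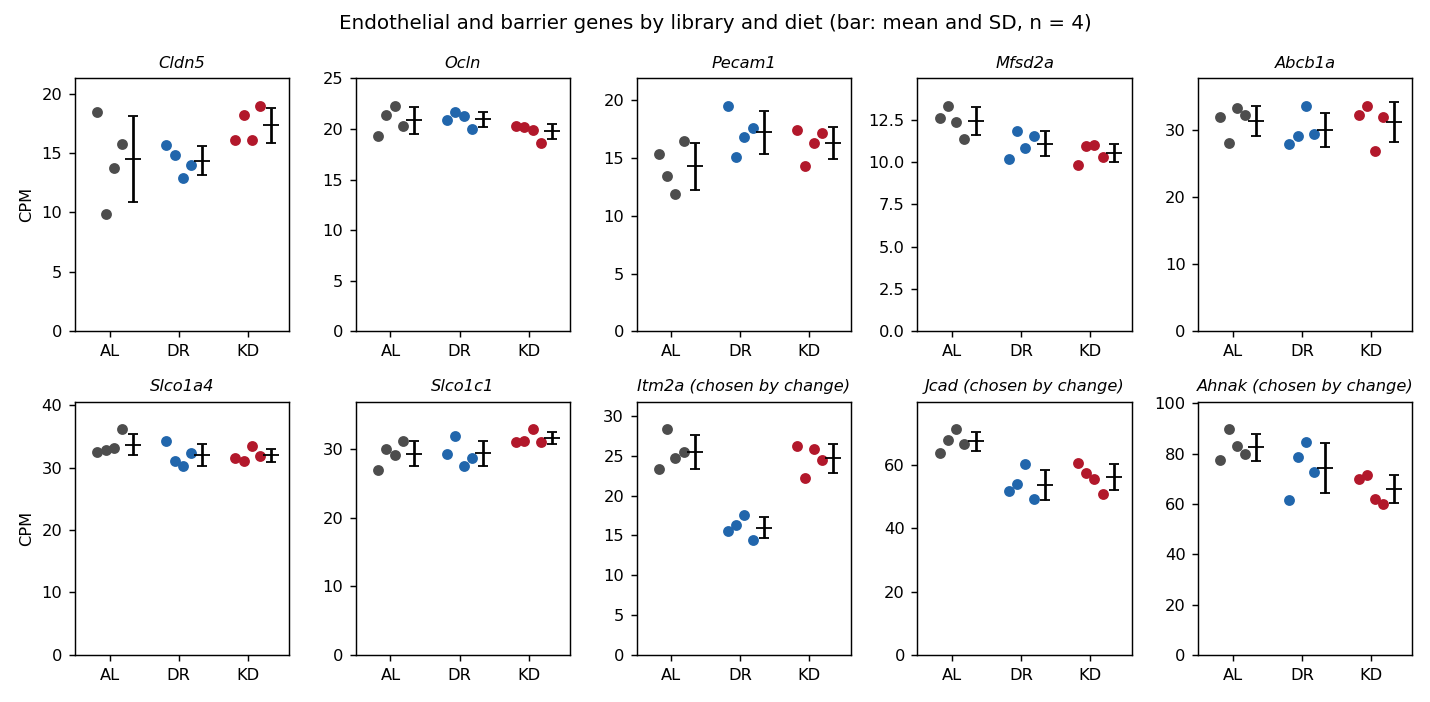
Level of each of the 10 genes in CPM (vertical axis, from 0) in the 4 libraries of each diet, with the diet mean and SD beside the points. The DR points of Itm2a, between 14.5 and 17.5 CPM, lie below every AL and KD point, and the points of Slco1a4 and Abcb1a overlap between all diets.

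Cldn5 and Ocln encode transmembrane proteins of the tight junction. Cldn5 (chr16:18776847-18778262, plus strand) was at 18.5, 9.88, 13.7 and 15.8 CPM in the AL libraries, 15.7, 14.9, 12.9 and 14.02 CPM in the DR libraries and 16.1, 18.2, 16.1 and 19.0 CPM in the KD libraries. The AL libraries spanned the DR range and all but the top of the KD range, with replicate 2 lowest and replicate 1 near the top, while the 4 KD values all lay above the 4 DR values. For KD against DR the groups did not overlap for 11.8% of the genes tested. The means were 14.5 ± 3.62 CPM on AL, 14.4 ± 1.22 CPM on DR and 17.3 ± 1.49 CPM on KD (SD, n = 4 each). In the quasi-likelihood test of edgeR, adjusted over all genes tested by Benjamini-Hochberg, KD exceeded DR by 0.27 on the log2 scale (standard error, SE, 0.08, 95% interval 0.10 to 0.44), with an adjusted p of 0.0615 that missed the threshold of 0.05. The adjusted p became 0.0423 without DR replicate 1, 0.0152 without the filter on low counts and 0.0218 with DESeq2, and it was 0.266 with all 12 libraries in one fit. The fit without the filter gave much smaller adjusted p for some other genes at nearly unchanged fold changes, so its value needs caution. Against AL, the log2 fold change was -0.01 on DR (interval -0.31 to 0.29) and 0.26 on KD (interval -0.03 to 0.56), so a DR effect between -19.3% and 22.2% could not be told from none at this spread.

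Ocln (chr13:100496507-100552718, minus strand) varied far less, from 19.3 to 22.3 CPM on AL, 19.98 to 21.7 CPM on DR and 18.6 to 20.3 CPM on KD. The diets overlapped. Its log2 fold changes were 0.01 for DR against AL (interval -0.13 to 0.14), -0.08 for KD against AL (interval -0.21 to 0.06) and -0.08 for KD against DR (interval -0.21 to 0.04), and the adjusted p were 0.973, 0.994 and 0.477 by edgeR. The coefficient of variation within diets was 4.73% for Ocln and 15.4% for Cldn5, the lowest but one and the highest of the 10 genes.

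Pecam1, the adhesion molecule CD31 of endothelial junctions, is a general endothelial marker. It lies at chr11:106654217-106750628 on the minus strand and was at 15.4, 13.5, 11.9 and 16.5 CPM in the AL libraries, 19.6, 15.1, 16.8 and 17.6 CPM in the DR libraries and 17.5, 14.3, 16.3 and 17.2 CPM in the KD libraries. Of the DR libraries, 3 lay above all AL libraries and replicate 2 did not. The log2 fold change of DR against AL was 0.28 (SE 0.10, interval 0.06 to 0.49), with an adjusted p of 0.164 by edgeR. Without the filter on low counts, a fit that needs the same caution as for Cldn5, the adjusted p was 0.03 by edgeR. KD differed from AL by 0.20 (interval -0.01 to 0.40) and from DR by -0.08 (interval -0.26 to 0.10), and neither passed.

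Mfsd2a carries lysophosphatidylcholine with omega-3 fatty acids across the endothelium and keeps vesicle transport low. Its gene lies at chr4:122946850-122961188 on the minus strand. It was at 12.6, 13.3, 12.4 and 11.4 CPM in the AL libraries, 10.2, 11.8, 10.8 and 11.5 CPM in the DR libraries and 9.85, 10.96, 10.999 and 10.3 CPM in the KD libraries. The 4 KD values all lay below the 4 AL values, whereas DR overlapped both. The difference of KD from AL was -15.3% (-0.24 in log2, SE 0.07, interval -0.39 to -0.08), with an adjusted p of 0.981 by edgeR. In that comparison the groups did not overlap for 2.96% of the genes tested. The log2 fold change was -0.17 for DR against AL (interval -0.33 to 0.00169, adjusted p = 0.283) and -0.07 for KD against DR (interval -0.24 to 0.09, adjusted p = 0.661) in the same test.

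Abcb1a encodes P-glycoprotein, the efflux pump of the luminal membrane, and lies at chr5:8660077-8748575 on the plus strand. It ranged from 28.1 to 33.3 CPM on AL, 27.9 to 33.7 CPM on DR and 26.9 to 33.7 CPM on KD, so the diets overlapped throughout. Its log2 fold changes were -0.06 for DR against AL (interval -0.21 to 0.08), -0.01 for KD against AL (interval -0.16 to 0.14) and 0.05 for KD against DR (interval -0.10 to 0.21). Abcb1b, its close copy, was at 1.23 to 2.99 CPM. As 17.6% of the 50-base words of Abcb1a also occur in other genes, mostly Abcb1b, and 10.1% of its exons overlap a gene on the opposite strand, its level is less certain than that of the others.

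Slco1a4 and Slco1c1 encode organic anion transporters, of which the second carries thyroid hormone. Both lie on chromosome 6, at chr6:141805440-141856199 on the minus strand and chr6:141524368-141570177 on the plus strand. Slco1a4 ranged from 32.6 to 36.2 CPM on AL, 30.3 to 34.3 CPM on DR and up to 33.4 CPM on KD (mean 31.9 ± 1.05, SD, n = 4). Its log2 fold changes against AL were -0.07 on DR (interval -0.19 to 0.05) and -0.07 on KD (interval -0.18 to 0.03). Slco1c1 ranged from 26.9 to 31.2 CPM on AL, 27.6 to 31.9 CPM on DR and 31.05 to 32.9 CPM on KD. KD exceeded AL by 0.11 (interval -0.00473 to 0.22) and DR by 0.10 (interval -0.01 to 0.22), and the adjusted p were 0.994 and 0.336 by edgeR. The KD values of Slco1c1 were tight, but AL replicate 4 and DR replicate 2 reached into them. The close copies Slco1a1, Slco1a5 and Slco1a6 were each at or below 0.26 CPM, and 1.61% of the words of Slco1a4 were shared with other genes.

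Of the 7 genes chosen by role, 0 passed the threshold by edgeR for DR against AL, where 3.06% of 19052 genes were differentially expressed. For KD against AL the count was 0 of 7, beside 0 of 19036 genes (0%; DESeq2 called 10). For KD against DR it was 0 of 7, beside 4.94% of 19087 genes. In each comparison 1 of the 7 had an unadjusted p under 0.05, namely Pecam1, Mfsd2a and Cldn5 in that order, against 3429, 928 (4.87%) and 3565 (18.7%) of all genes tested. DESeq2 called 0, 0 and 1 of the 7. Their log2 fold changes ran from -0.17 to 0.28, from -0.24 to 0.26 and from -0.08 to 0.27, with medians of -0.01, -0.01 and -0.00425, beside medians over all genes of 0.00361, 0.000213 and -0.00239. In bulk tissue, fewer endothelial cells and less RNA per cell cannot be told apart.

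**Figure D2:**
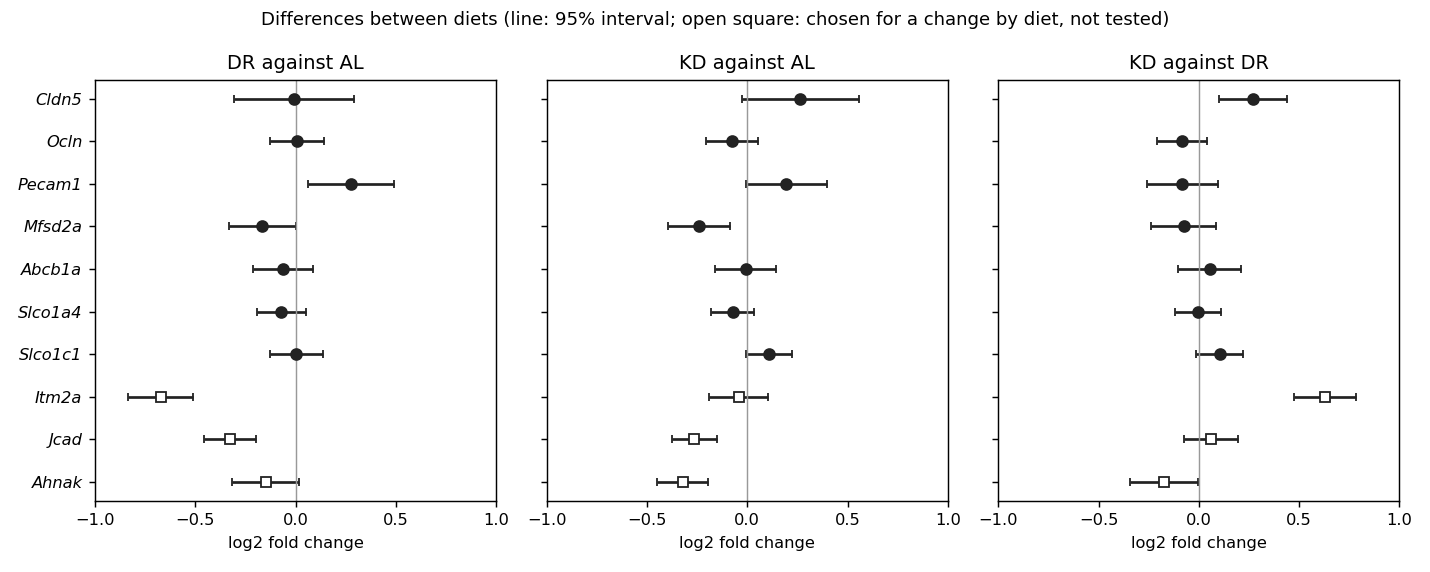
Log2 fold change (horizontal axis) of the 10 genes in the 3 comparisons, with 95% intervals as lines, filled circles for genes chosen by role and open squares for genes chosen by their change. The intervals of the open squares do not allow for that choice and are not tests. The interval of Cldn5 in KD against DR, 0.10 to 0.44, and that of Mfsd2a in KD against AL, -0.39 to -0.08, do not reach 0, while those of Abcb1a and Ocln cross 0 in all 3 comparisons.

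Itm2a, Jcad and Ahnak were picked for their differences, and the 3 genes differed between diets in unlike ways. Their intervals describe the spread between libraries and do not allow for this choice. An interval that leaves out 0 is therefore not a test for these genes. Itm2a, an integral membrane protein found in brain endothelium, lies at chrX:107397099-107403376 on the minus strand. It was at 23.4, 28.3, 24.7 and 25.5 CPM in the AL libraries, 15.6, 16.3, 17.5 and 14.5 CPM in the DR libraries and 26.3, 22.3, 25.9 and 24.4 CPM in the KD libraries. All DR values lay below all AL and KD values, and KD overlapped AL. The difference of DR from AL was -37.3% (log2 fold change -0.67, interval -0.84 to -0.51), and KD exceeded DR by 0.63 (interval 0.48 to 0.78) and differed from AL by -0.04 (interval -0.19 to 0.11).

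Jcad, a protein of endothelial cell junctions, lies at chr18:4634878-4682869 on the plus strand. It was at 63.9, 67.9, 71.3 and 66.7 CPM in the AL libraries, 51.7, 54.1, 60.2 and 49.1 CPM in the DR libraries and 60.6, 57.3, 55.6 and 50.9 CPM in the KD libraries. Both DR and KD lay below AL without overlap, and they overlapped each other. The log2 fold change against AL was -0.33 on DR (interval -0.45 to -0.20) and -0.26 on KD (interval -0.38 to -0.15), and between KD and DR it was 0.06 (interval -0.07 to 0.20).

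Ahnak, a very large scaffold protein under the plasma membrane that is not restricted to vessels, lies at chr19:8989284-9076919 on the plus strand. It was at 77.4, 89.7, 83.0 and 79.8 CPM in the AL libraries, 61.5, 78.8, 84.6 and 72.5 CPM in the DR libraries and 70.0, 71.3, 62.0 and 60.1 CPM in the KD libraries. KD lay below AL without overlap, and DR, with replicates 2 and 3 inside the AL range, overlapped both. The log2 fold change was -0.32 for KD against AL (interval -0.45 to -0.19), -0.15 for DR against AL (interval -0.32 to 0.02) and -0.17 for KD against DR (interval -0.35 to -0.00252). Itm2a thus stood apart on DR, Jcad on both diets and Ahnak on KD, a pattern that the choice of these genes fixed. Groups did not overlap for 10.9% of all genes in DR against AL, for 2.96% in KD against AL and for 11.8% in KD against DR.

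Other genes of the barrier were read from lists compiled by known role, from which Itm2a, Jcad and Ahnak were left out. The lists were compiled with earlier results of these data known. Their counts beside the shares of all genes are therefore a description. The part of the RNA of listed genes that came from cells outside the vessels was not tested. The comparisons share libraries, so a gene that was low on DR appears in both contrasts with DR. Of 35 endothelial identity genes tested, 0 were higher and 2 lower on DR than on AL, beside 1.32% and 1.74% of all genes. The list had a median log2 fold change of -0.08 with 24 of 35 negative. The 2 were receptors of the vessel wall: Ptprb, the endothelial phosphatase VE-PTP that restrains the angiopoietin receptor, and Tie1, a partner of that receptor. Ptprb was at 40.9, 38.4, 43.0 and 43.4 CPM in the AL libraries and 29.1, 32.7, 35.6 and 33.4 CPM in the DR libraries. Its groups did not overlap, as for 10.9% of all genes in that comparison. It fell by 0.34 on the log2 scale (SE 0.06, adjusted p = 0.0118 by edgeR). Tie1 fell from 11.4 ± 0.530 to 8.34 ± 0.922 CPM (SD, n = 4 each), which is -0.46 in log2 (SE 0.09, adjusted p = 0.0139 by edgeR). With each library left out in turn, 2 or 3 genes of the list were called, and the count was 7 without the filter on low counts (2 higher, 5 lower) and 4, all lower, with DESeq2.

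Against DR, KD had 6 of the 35 endothelial identity genes higher and 0 lower, beside 2.43% and 2.51% of all genes. The median was 0.14, with 26 of 35 positive. Eng, the TGF-beta co-receptor endoglin, was at 13.7, 15.3, 15.8 and 15.4 CPM in the DR libraries and 19.3, 21.1, 21.9 and 21.2 CPM in the KD libraries, and rose by 0.47 (SE 0.07, adjusted p = 0.00075 by edgeR). Podxl, a sialomucin of the luminal surface, rose from 18.7 ± 1.67 to 24.6 ± 1.83 CPM (SD, n = 4 each; 0.39 in log2, adjusted p = 0.00591 by edgeR). Ptprb (0.31, adjusted p = 0.00728 by edgeR) and Tie1 (0.45, adjusted p = 0.0177) were also higher, and Tie1 lost its call without KD replicate 2 (0.0553). Kdr, the main VEGF receptor, rose by 0.46 (adjusted p = 0.0168 by edgeR), was 0.064 without KD replicate 3 and 0.0582 without KD replicate 4, and was 0.0772 with all 12 libraries in one fit. The sixth gene was Icam2, an adhesion molecule named after its value was seen, at 1.21 to 1.38 CPM on DR and 1.80 to 2.31 CPM on KD (adjusted p = 0.0419 by edgeR). Its call was lost without any 1 of the 8 libraries (0.0634 to 0.117). Between 4 and 7 genes of the list were called with 1 library left out, of which 1 was lower without KD replicate 4. Without the filter on low counts 6 were higher and 1 lower. Over all alternatives that kept every library, 5 to 9 were called. Of the markers set to define the cell type, Kdr passed for KD against DR by edgeR. Cldn5, Pecam1, Cdh5, Flt1 and Tek did not pass in any comparison in that test. The summed level of the list was 514 to 576 CPM on AL, 498 to 524 CPM on DR and 552 to 572 CPM on KD. The sum weighs S1pr1 most, at 3748 to 5287 counts per library. The part of S1pr1 RNA from cells other than endothelium was not tested.

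**Figure D3:**
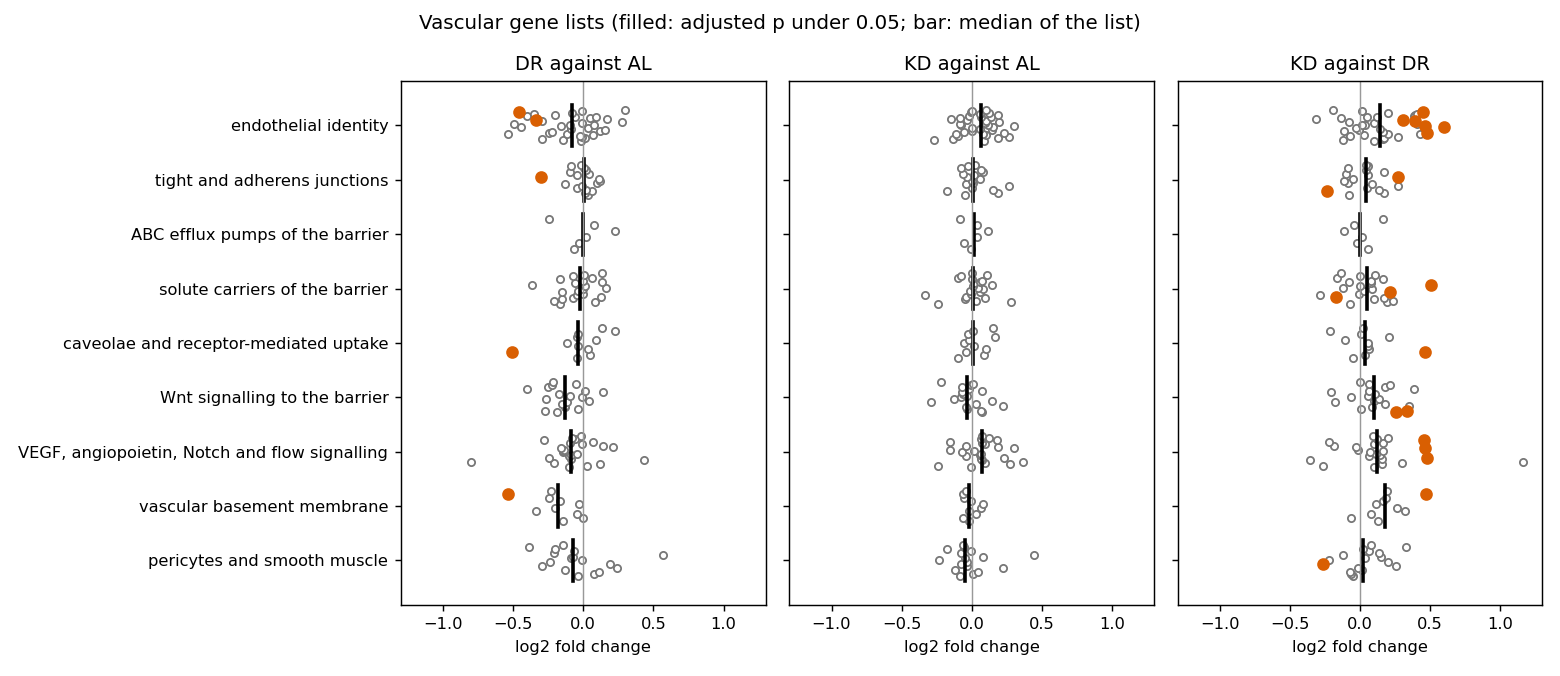
Log2 fold change (horizontal axis) of each gene tested in 9 lists of vascular genes, for the 3 comparisons, with filled points for an adjusted p under 0.05 and a bar at the median of the list. KD against AL has no filled point, and the endothelial identity list has 2 filled points below 0 in DR against AL and 6 above 0 in KD against DR.

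Among 18 genes of tight and adherens junctions, 1 was lower on DR than on AL, beside 1.74% of all genes. This was Jam2, a junctional adhesion molecule, which fell from 49.5 ± 1.99 to 40.2 ± 2.89 CPM (SD, n = 4 each; -0.30 in log2, SE 0.06, adjusted p = 0.0113 by edgeR). The list median was 0.00802, with 10 of 18 positive. Against DR, KD had Jam2 higher (0.27, adjusted p = 0.0093 by edgeR) and Cgn, the cytoplasmic junction protein cingulin, lower (-0.23, adjusted p = 0.038). Of all genes, 2.43% were higher and 2.51% lower in that comparison. Cgn lost its call without DR replicate 2 or 3 or KD replicate 1, 3 or 4 (0.0875 to 0.123) and with all 12 libraries in one fit (0.0738).

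Of 6 ABC efflux pumps, among them Abcb1a, 0 passed in any comparison. Abcc5 of this list had 16841 to 22768 counts per library and Abcb1a 935 to 1298. The part of Abcc5 RNA from cells other than endothelium was not tested. Of 22 solute carriers, among them Mfsd2a, Slco1a4 and Slco1c1, 0 passed for DR against AL and 3 for KD against DR. Of all genes, 3.06% and 4.94% passed in these comparisons. Slc40a1, the iron exporter ferroportin, was 0.51 higher (adjusted p = 0.0217 by edgeR), and Slc38a3, a glutamine transporter also expressed by astrocytes, was 0.21 higher (adjusted p = 0.022). For Slc29a1, a nucleoside transporter, the difference was -0.17 in log2 (adjusted p = 0.0483 by edgeR). Slc40a1 lost its call without DR replicate 2 or 3 or KD replicate 1 or 4 (0.0532 to 0.0755), Slc38a3 without DR replicate 1 or 3 or KD replicate 2, 3 or 4 (0.0523 to 0.085), and Slc29a1 in every set but that without DR replicate 4 (0.051 to 0.158). Without DR replicate 3 or without KD replicate 4, 0 of the 22 passed, and 1 passed without KD replicate 2 or 3.

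Of 11 genes of vesicle uptake, 1 was lower on DR than on AL, beside 1.74% of all genes. This was Cav1, the coat protein of caveolae. It was at 7.74, 7.41, 7.46 and 8.30 CPM in the AL libraries and 4.98, 6.30, 5.78 and 4.73 CPM in the DR libraries. The groups did not overlap, as for 10.9% of all genes in that comparison. The difference was -0.51 in log2 (SE 0.10, adjusted p = 0.0198 by edgeR). However, the adjusted p was 0.0541 to 0.0647 without AL replicate 1 or 4 or DR replicate 1 or 4. KD exceeded DR by 0.46 (adjusted p = 0.0192 by edgeR), which became 0.0515 without DR replicate 4 and 0.0767 without KD replicate 1.

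Of 19 genes of Wnt signalling to the barrier, 0 passed for DR against AL, beside 3.06% of all genes, although 16 were negative and the median was -0.13. Against DR, KD had 2 of the 19 higher, beside 2.43% of all genes, with a median of 0.10. Apcdd1, a Wnt inhibitor that is itself a Wnt target of brain endothelium, rose from 14.6 ± 0.446 to 18.4 ± 1.32 CPM (SD, n = 4 each; 0.34 in log2, adjusted p = 0.00918 by edgeR). Adgra2, the co-receptor Gpr124 for Wnt7, was 0.26 higher (adjusted p = 0.0494 by edgeR) and kept its call only without DR replicate 4 among the 8 sets with 1 library left out (0.058 to 0.13 in the others). Of 24 genes of VEGF, angiopoietin, Notch and flow signalling, 0 passed for DR against AL (median -0.09, 18 negative). For KD against DR 3 were higher (median 0.12), beside the same 2.43% of all genes. Of the 3, Eng and Kdr are also in the identity list. The third was Nrp1, a VEGF co-receptor (0.45, adjusted p = 0.044 by edgeR). It kept its call only without DR replicate 2 among the 8 sets (0.0529 to 0.15 in the others), and 1 of the 24 was called without KD replicate 3 or without KD replicate 4.

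Around the endothelium, all 10 genes of the vascular basement membrane had negative log2 fold changes on DR (median -0.18; 9 of 10 when scaled by library size only). Of the 10, 1 passed, beside 3.06% of all genes. The count was 3 without the filter on low counts and 3 with DESeq2. Nid1, the linker protein nidogen, was at 28.2, 26.7, 28.8 and 30.0 CPM in the AL libraries and 17.6, 18.7, 20.1 and 22.2 CPM in the DR libraries. It fell by 0.53 on the log2 scale (SE 0.07, adjusted p = 0.00143 by edgeR). Its groups did not overlap, as for 10.9% of all genes in that comparison. KD exceeded DR by 0.47 (adjusted p = 0.0016 by edgeR), again 1 of 10. For KD against DR, 2.43% of all genes were higher and 2.51% lower. Of 17 pericyte and smooth muscle genes, 0 passed on DR against AL, and Des, the intermediate filament desmin, was lower on KD than on DR (-0.27, adjusted p = 0.0228 by edgeR). That call was lost without DR replicate 3 or 4 or KD replicate 1, 3 or 4 (0.057 to 0.0821).

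Some markers of other cells moved with DR too, where 1.74% of all genes were lower than on AL. Of 8 genes of astrocytes and Bergmann glia, 2 were lower on DR: Aqp4, the water channel of the endfeet on vessels, fell by 0.52 (adjusted p = 0.000706 by edgeR), and Gja1, the gap junction protein connexin 43, fell by 0.24 (adjusted p = 0.0124). Aqp4 was at 178 to 212 CPM on AL, 130 to 154 CPM on DR and 165 to 205 CPM on KD. The sum of this list was 2887 to 2991 CPM on AL, 2616 to 2706 CPM on DR and 2808 to 2904 CPM on KD. Of the Purkinje cell list 1 of 6 genes was lower on DR (Car8, -0.24, adjusted p = 0.0327 by edgeR), with sums of 7250 to 7813, 6267 to 7167 and 7213 to 7469 CPM. Car8 was called in 3 of the 8 sets with 1 library left out, and lost without AL replicate 1, 2 or 4 or DR replicate 2 or 3. The part of these shifts in the vascular values was not tested. Red blood cell genes (5) summed to 275 to 423 CPM on AL, 176 to 494 CPM on DR and 238 to 270 CPM on KD, and 0 passed. None of 12 fibroblast, 6 perivascular macrophage, 6 microglia or 6 granule cell genes passed in any comparison.

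Whether the 10 genes varied together from library to library was read from deviations of log2 CPM from the diet mean, over 12 libraries, a measure that did not choose any gene. Of 45 pairs, 0 had an adjusted p under 0.05 in the two-sided exact permutation test, and 6 had an unadjusted p under 0.05. Pearson's r ran from -0.73 to 0.76 with a median of -0.06. The highest pair was Ocln and Jcad (r = 0.76, exact permutation p = 0.00239, adjusted 0.107; Spearman's rho = 0.79), at 0.66 without the 2 libraries farthest from the median of Ocln. Among the 21 pairs of genes chosen by role, 9 were positive and the median r was -0.15. Cldn5 and Pecam1, both endothelial markers, had r = 0.36, and Cldn5 and Itm2a r = -0.70 (exact permutation p = 0.0172, adjusted 0.258). Without the 2 libraries farthest from the median of Cldn5, these r were 0.32 and -0.48 (exact permutation p = 0.46 and 0.23).

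**Figure D4:**
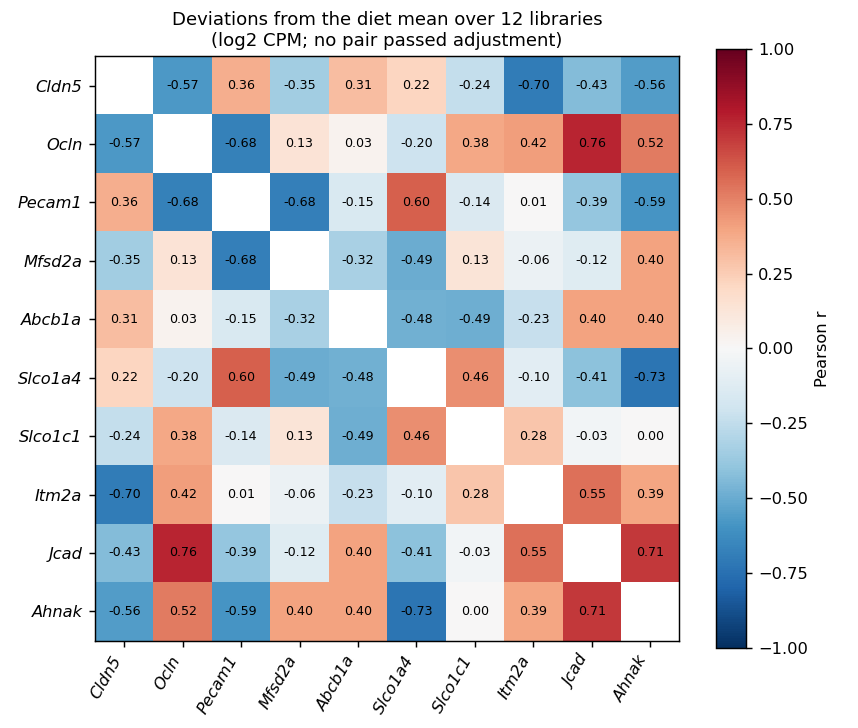
Pearson's r between each pair of the 10 genes, from deviations of log2 CPM from the diet mean over 12 libraries, with red for positive and blue for negative values. Values run from -0.73 to 0.76, and the 10 genes do not form a block of positive values.

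Among 15476 genes of at least 1 CPM, those whose deviations followed Cldn5 most closely over the 12 libraries were Ruvbl2 (r = 0.90), Gm49601 (0.90), Aqp9 (0.89), Ppp2r1b (0.87) and Cyp4f17 (0.87), which are the top of a long ranking and carry no test. Their Spearman's rho with Cldn5 was 0.87, 0.77, 0.69, 0.81 and 0.90 in turn. Pecam1 stood at rank 1830 in the ranking by r, Abcb1a at 2418 and Slco1a4 at 3735, while Ocln (14946) and Itm2a (15304) were near its end. Cldn5 spread most among the AL libraries, which therefore weighed most in r and in these ranks.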

How the data were processed

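Poly(A) RNA of the cerebellar cortex was sequenced in 12 libraries, 4 per diet, and diets were taken from the sample labels. The authors trimmed reads with Trimmomatic 0.39, aligned them with STAR 2.7.0f to GRCm38.p6 and counted them per GENCODE gene with featureCounts (Subread 1.6.4). The deposited values are raw counts. The kit does not keep strand, and the strand setting of the counting was not given in the sources used here. Symbols were matched for 54723 of 54752 genes.

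Diets were compared in pairs, each on the 8 libraries concerned: genes kept by filterByExpr (minimum count 10, minimum total 15), TMM, and the quasi-likelihood test of edgeR 4.0.16 (R 4.3.3), adjusted by Benjamini-Hochberg at a threshold of 0.05. Intervals are 95% and cover the spread between libraries. CPM used TMM factors over all 12 libraries, and log2 CPM a prior count of 2. Correlations within diets used 13824 orders that keep each library in its diet. DESeq2 1.42.0, other scalings, filters and leaving out each library were alternatives. Replicates of one diet differed beyond sampling noise (chi-square per gene 4.95 to 11.55) and each counted as 1 sample. Replicates were numbered in accession order. By the study's methods each AL and DR library was from 1 mouse. The labels do not say so for KD, where p-values may measure technical spread only.

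The procedure was tested on simulated counts. The 10 genes and the lists were chosen with earlier results of these data known. Beside the 10 genes and their close copies, those named were the called genes of each list, at most 5 per comparison by p, the 5 genes most like Cldn5 and defining markers. Some results of these lists are not reported here.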

Additional observations from a re-analysis of the deposited data

Results flagged for a closer look

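In 2 of 30 groups of 4 libraries (10 genes, 3 diets), 1 library stood far from the rest by Dixon's criterion, which chance alone meets in about 1 in 20 groups. Slco1a4 in AL replicate 4 was at 36.2 CPM, against 32.6 to 33.2 CPM in the other AL libraries. Slco1c1 in KD replicate 3 was at 32.9 CPM, against 31.05 to 31.3 CPM in the other KD libraries.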

How the results depend on the processing

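No paired analysis was possible because the labels give no replicate numbers or pairing. Of 294 values of the 7 genes chosen by role under alternatives, 268 kept their direction and their side of the threshold, 4 passed it newly and 22 changed sign, to a size of at most 0.141 in log2. Of 126 values of Itm2a, Jcad and Ahnak, which carry no test, 124 kept their direction and 2 changed sign. For other named genes 348 of 442 kept their call and 94 lost it. The number of genes called was 1258 for DR against AL without the filter on low counts, 1012 with DESeq2 and 862 with all 12 libraries in one fit. It ran from 235 to 712 with 1 library left out, and was 264, 276 and 244 without AL replicate 1, 2 and 4, and 353 and 235 without DR replicate 1 and 3. For KD against AL it was 118 without the filter, 10 with DESeq2 and 0 to 6 with 1 library left out (6, 2 and 5 without AL replicate 1, 3 and 4). For KD against DR it was 1503 without the filter, 1338 with DESeq2 and 467 to 946 with 1 library left out (520 without DR replicate 3, and 526, 467 and 601 without KD replicate 1, 3 and 4). Of the 7 genes chosen by role, 1 was called without the filter in DR against AL (Pecam1). In KD against DR, 1 was called without the filter and 1 with DESeq2, and 0 to 1 with 1 library left out (Cldn5 each time, in the last case without DR replicate 1). The cause was not tested. Counts and calls without the filter need caution. At a log2 fold change of 2.16 in both fits, the adjusted p of Ttr (KD against DR, edgeR) went from 0.0332 to 9.51e-27 without it. That of Icam2 in the same comparison rose from 0.0419 to 0.0535. Signs changed for DR against AL in Cldn5 (0.0121 with library size only; -0.156 to 0.141 with 1 library left out), Ocln (-0.0246 to 0.0413) and Slco1c1 (-0.000723 without the filter; -0.0372 to 0.033). They changed for KD against AL in Abcb1a (-0.0606 to 0.0583) and Itm2a (-0.0833 to 0.0115), and for KD against DR in Slco1a4 (0.000413 with RLE factors, 9.4e-05 with DESeq2; -0.0299 to 0.0306). Alternatives for the list counts were chosen after seeing the data. Depth gave each of the 10 genes at least 359 counts per library, and the spread between libraries, widest for Cldn5, limited what could be seen.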

Other observations

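Some barrier genes outside the naming rule were looked at after their values were seen. Slc2a1, the glucose transporter GLUT1 of endothelium and astrocytes, was at 148, 191, 175 and 137 CPM in the AL libraries, 137, 150, 185 and 159 CPM in the DR libraries and 146, 133, 120 and 117 CPM in the KD libraries. KD overlapped both other diets. The log2 fold change of KD was -0.33 against AL (adjusted p = 0.924 by edgeR) and -0.29 against DR (adjusted p = 0.0531 by edgeR). Plvap, the diaphragm protein of fenestrated vessels, was at 16.3 to 19.2 CPM on AL, 19.0 to 22.2 CPM on DR and 17.1 to 18.7 CPM on KD. KD lay below DR without overlap (-0.22 in log2, adjusted p = 0.0658 by edgeR), and DR exceeded AL by 0.23 (adjusted p = 0.0967 in the same test). Abcg2, the efflux pump BCRP, was at 9.11 to 10.6 CPM on AL and 7.74 to 8.74 CPM on DR, without overlap (-0.25 in log2, adjusted p = 0.129 by edgeR). Groups did not overlap for 11.8% of all genes in KD against DR and for 10.9% in DR against AL.

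Ttr, which encodes transthyretin, a main product of choroid plexus, was called higher on KD than on DR (adjusted p = 0.0332 by edgeR). The KD libraries were at 7.95, 0.371, 2.13 and 3.19 CPM and the DR libraries at 0.655 to 0.817 CPM, with replicate 1 highest and replicate 2 below the DR range. The call was kept only without KD replicate 2 among the 8 sets with 1 library left out. The other 4 of 5 tested choroid plexus genes did not pass in that comparison, where 4.94% of all genes passed. Among other called markers for KD against DR, Kcnj10 of astrocytes was 0.21 higher (adjusted p = 0.0304 by edgeR), Mag of oligodendrocytes 0.24 higher (adjusted p = 0.0211), Aqp4 0.45 higher (adjusted p = 0.00131) and Car8 of Purkinje cells 0.24 higher (adjusted p = 0.0164). Kcnj10 lost its call without DR replicate 1 or 3 or KD replicate 2, 3 or 4, Mag without DR replicate 1 or 2 or KD replicate 1, 3 or 4, and Car8 without DR replicate 3 or KD replicate 3.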
